A study of Mus musculus with 5 samples.

Results

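The comparison set the liver against the ventral pancreas of the mouse embryo at E10.5 (E for embryonic day), using 2 of the 5 RNA sequencing libraries of the study. Both are neighbours that arise from the ventral foregut endoderm. The study profiled hepatic and pancreatic progenitors at a pair of developmental stages, and the other 3 libraries were foregut and medial foregut at E8.5 and dorsal pancreas at E10.5. Every library came from embryos of the C57BL/6J strain, with no genotype or treatment given, and there was 1 library per tissue. Poly(A) RNA was sequenced from paired ends on the Illumina HiSeq. How the tissue was dissected or sorted, how many embryos were pooled and whether they were male or female were not stated in the sources at hand. The members of the comparison were all loci with a gene name, 12375 of the 14053 loci in the deposited table, and each was compared by log2(FPKM + 1) in liver minus log2(FPKM + 1) in ventral pancreas. FPKM counts fragments per kilobase of a transcript and per 1000000 mapped, so levels of different genes are on one length-corrected scale. With 1 library a side there is no replicate error, no test and no p-value, and every value describes these libraries only.

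The liver bud and the ventral pancreatic bud form side by side from the floor of the anterior gut tube, next to the heart and the septum transversum, the mesenchyme that the liver bud grows into. Signals from these neighbours, among them FGF and BMP ligands, are known to favour hepatic fate, and Pdx1 and Ptf1a mark the cells that become pancreas. In the liver bud, hepatoblasts start to make plasma proteins early, while the ventral pancreatic bud stays beside the bile duct and gall bladder primordium, which is marked by Sox17. The early liver also becomes a site of blood formation.

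The markers of each label were on the side of that label. The 6 liver markers were higher in liver: Hnf4a, a nuclear receptor that drives hepatocyte genes, stood at 158 FPKM in liver and 31.3 in ventral pancreas, and Apoa2, an apolipoprotein of high-density lipoprotein, at 1618 FPKM in liver and 170.2 in ventral pancreas. The pancreatic markers Pdx1, Ptf1a, Sox9, Nkx6-1, Mnx1 and Cpa1 were all higher in ventral pancreas. Of these, Sox9 stood at 2.32 FPKM in liver, and Pdx1, Nkx6-1, Mnx1 and Cpa1 were each under 1 FPKM there. Ptf1a was listed at 0 in liver. The Sox9 locus overlaps BC006965. The ventral pancreas library was not free of liver markers, and Apoa2 there was far above its 1.79 FPKM in dorsal pancreas.

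The size rule asked for a difference of at least 2 on the log2(FPKM + 1) scale, equal to 4 times in FPKM + 1, and for at least 5 FPKM in the higher library; genes past it are called higher or lower below. By this rule 154 genes were higher in liver, 1.24% of the named loci, and 342 were lower, 2.76%. Most loci differed little: 10065, or 81.3%, lay within 1 of each other on the log2 scale. The median difference was -0.17 over all named loci and -0.16 over the 11030 loci with a mean of at least 1 FPKM in these libraries, called measured from here on. The list counts below are of measured members and are to be set beside the shares given here. Every counted gene is measured, so the shares over measured loci would be slightly larger than those over named loci. At least 1 FPKM was reached by 10266 loci in liver, and by 11165 in the ventral library. When the named loci of each library were rescaled to sum to 1000000, the median of all loci moved to -0.31. The counts moved to 196 higher and 727 lower, and the higher share of the counted genes from 31.0% to 21.2%. The summed FPKM before was 365966 in liver and 335391 in ventral pancreas, so this step raised all values. The 1 added to each value stayed the same, so the step also loosened the size rule for low genes. Rescaling by median ratio gave 156 higher and 332 lower.

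The levels of the counted genes on their low side follow in part from the size rule, which used the same values, and are given as a description. Of the 154 genes higher in liver, 66 still reached 5 FPKM in ventral pancreas, 23 were under 1 FPKM and 0 were listed at 0. Of the 342 genes lower in liver, 154 were under 1 FPKM in liver, 6 of them listed at 0, and 47 reached 5 FPKM. Of all measured loci 7.63% were under 1 FPKM in liver and 1.72% in ventral pancreas. The genes higher in liver made up 6.10% of all summed FPKM in liver and 0.746% of it in ventral pancreas. The joined locus of 2410017I17Rik, H2-Bl and H2-T10, described below, gave 4797 of the 365966 FPKM summed in liver and is part of that 6.10%. The genes lower in liver made up 2.91% in ventral pancreas and 0.254% in liver. At 100 FPKM or more there were 36 of the higher genes in liver and 14 of the lower genes in ventral pancreas. Fewer cells of a type and less RNA per cell cannot be told apart in such libraries, and this holds for every difference given here.

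**Figure D1:**
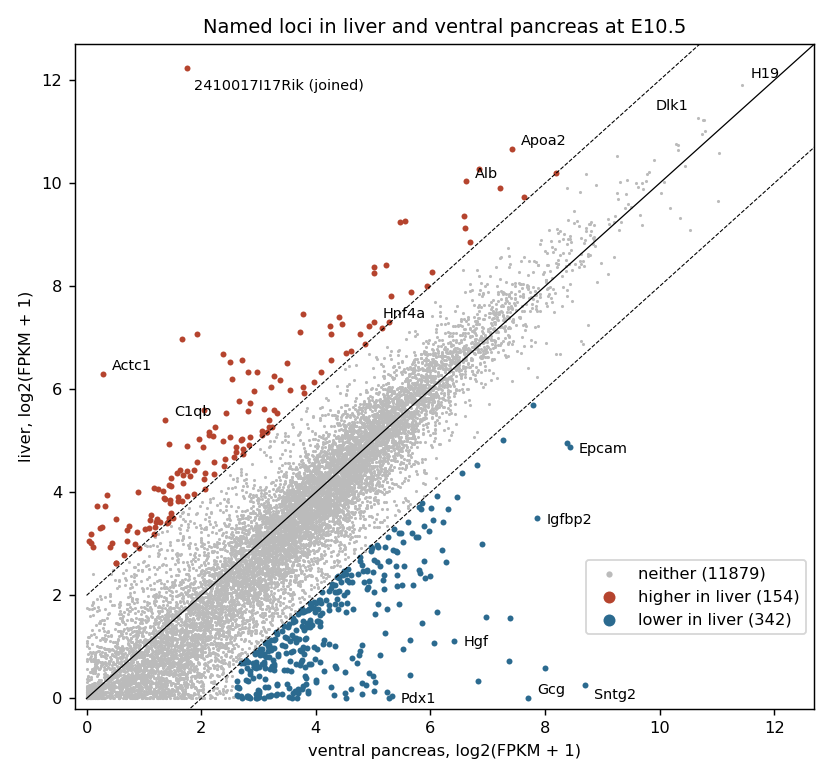
Level of each of the 12375 named loci in ventral pancreas (horizontal axis) and liver (vertical axis), both as log2(FPKM + 1), 1 library each. Points in red are the 154 genes higher in liver and points in blue the 342 genes lower in liver; the solid line marks equal levels and the dashed lines a difference of 2. The blue points gather near the bottom edge, where liver is close to 0, while many red points lie well away from the left edge.

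Genes for the proteins that the liver releases into the blood were read in 5 lists. Of 10 measured genes of apolipoproteins and lipoprotein assembly, 7 were higher in liver, 0 were lower and 3 were neither, with a median difference of 2.53, against the 1.24% of all loci counted as higher and the median of -0.16 over measured loci. Apoc2, the activator of lipoprotein lipase, stood at 90.9 FPKM in liver against 4.66 in the ventral pancreas and 0.235 in the dorsal one, a liver minus ventral difference of 4.02. Apob, the scaffold of very-low-density lipoprotein, stood at 46.5 FPKM in liver, with 6.03 in the ventral and 0.117 in the dorsal bud. Mttp, which loads lipid onto it, stood at 107 FPKM in liver and 23.4 in ventral pancreas. Apoa2 overlaps the locus Tomm40l, Mttp overlaps Rg9mtd2 and Pltp, given next, overlaps Ctsa, and reads of such pairs cannot be told apart without strand. Pltp, a phospholipid transfer protein, went the other way without passing the size rule, at 1.01 against 4.23 FPKM.

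The genes of coagulation and fibrinolysis were the list with the highest share among the hepatic products. Of 15 measured members 12 were higher in liver, 0 were lower and 3 were neither, with a median difference of 2.79, and all 15 had a difference above 0. The fibrinogen chains, which are cleaved to form the clot, were all higher. Fga stood at 169, 20.1 and 1.47 FPKM in liver, ventral pancreas and dorsal pancreas, Fgb at 661 FPKM in liver against 94.8 in the ventral pancreas and 13.3 in the dorsal one and Fgg at 234 FPKM in liver, with 49.3 in the ventral and 4.38 in the dorsal bud. Plg, encoding plasminogen, which dissolves the clot, stood at 329, 31.5 and 1.73 FPKM in liver, ventral pancreas and dorsal pancreas. F2, encoding prothrombin, stood at 148 FPKM in liver and 17.9 in ventral pancreas, and Kng1, encoding kininogen, at 47.2 FPKM in liver and 3.14 in ventral pancreas. Serpind1, encoding heparin cofactor, stood at 175 FPKM in liver and 12.67 in ventral pancreas, at a locus that overlaps Pi4ka. None of these genes was above 15.6 FPKM in foregut at E8.5, the value of Fgb.

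Carrier proteins split in both directions. Of 12 measured members 6 were higher in liver and 2 lower, with a median of 1.73. Hpx, encoding the haem scavenger hemopexin, stood at 79.5 FPKM in liver against 6.01 in the ventral pancreas and 0.482 in the dorsal one. Itih3, an inter-alpha-trypsin inhibitor chain that binds hyaluronan, stood at 35.0 FPKM in liver, with 3.39 in the ventral and 0.0317 in the dorsal bud. The members on the other side were Igfbp2 and Gc. Igfbp2, a carrier of insulin-like growth factors, stood at 10.3, 232 and 65.3 FPKM in liver, ventral pancreas and dorsal pancreas, and at 99.1 and 68.2 FPKM in foregut and medial foregut at E8.5. Gc, the vitamin D binding protein of adult plasma, stood at 6.20 FPKM in liver against 41.8 in the ventral pancreas and 38.3 in the dorsal one. Both were therefore lower in the liver library than in either pancreatic library.

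Among the 8 measured complement and acute phase genes, C3 and C1s were higher in liver and 0 were lower, with a median of 1.12. C3, the central complement component, stood at 75.1 FPKM in liver, with 8.64 in the ventral and 0.533 in the dorsal bud. Of 8 measured protease inhibitors of plasma, Serpina10 was higher in liver (62.0 against 10.7 FPKM, at a locus that overlaps Ppp4r4), and Spint1, a membrane inhibitor of epithelial proteases, was lower (5.36 against 58.5 FPKM). The serpins taken as a family by name had 5 of 14 measured members higher and 0 lower. The joined locus of Rbp4, the plasma carrier of retinol, and Pde6c stood at 1178 FPKM in liver and 291 in ventral pancreas, and that of Apoe and Tomm40 at 854 FPKM in liver and 197 in ventral pancreas.

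The liver to ventral ratio of FPKM varied widely over the 53 measured genes of the 5 lists above (apolipoproteins, coagulation, carriers, complement, protease inhibitors). Its median was 4.60, with quartiles of 1.55 and 8.69, a lowest value of 0.0445, that of Igfbp2, and a highest of 19.5, that of Apoc2, and 23 of the 53 ratios lay between 5 and 15. Against dorsal pancreas the median over the 53 was 15.9, with quartiles of 4.18 and 100.3. The 36 of them at 20 FPKM or more in liver were chosen by their liver level, which raises such ratios. Over these 36 the liver to ventral ratio of FPKM had a median of 7.72 and quartiles of 4.59 and 10.6. The lowest ratio was 0.661, that of Cst3, encoding the widely made inhibitor cystatin C. Against dorsal pancreas the same 36 genes had a median ratio of 52.0, quartiles of 12.2 and 147, and a highest value of 1295. Alb (1051 against 97.0 FPKM), Trf (1244 against 115 FPKM), Plg and Serpinc1 (31.7 against 2.91 FPKM) lay close together, at ratios near the upper quartile; the Serpinc1 locus overlaps Cenpl, Gas5 and 1 joined locus. A smaller group had levels in ventral pancreas nearer to those in liver. Ambp, the precursor of alpha-1-microglobulin, stood at 898 FPKM in liver and 612 in ventral pancreas, Vtn, encoding vitronectin, at 351 FPKM in liver and 227 in ventral pancreas, and Serpinf1, encoding pigment epithelium-derived factor, at 241 FPKM in liver and 115 in ventral pancreas. Which cells of the ventral pancreas library these transcripts came from was not tested.

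**Figure D2:**
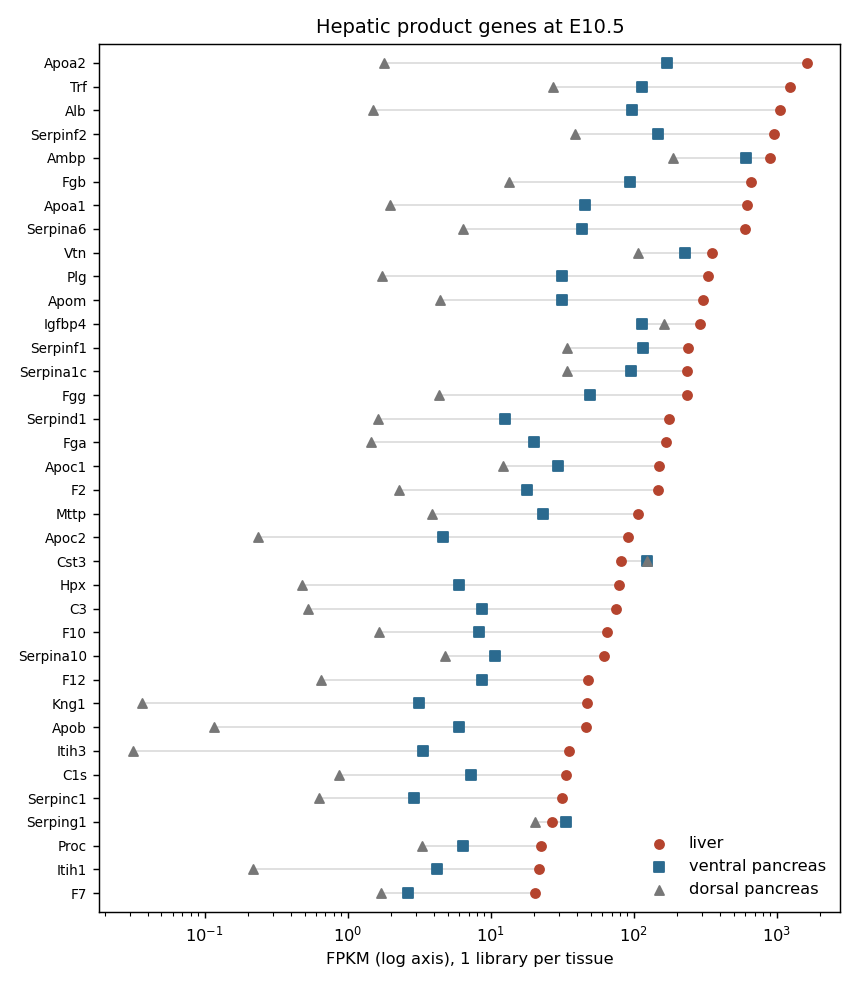
FPKM (log axis) of the 36 hepatic product genes at 20 FPKM or more in liver, ordered by liver level, in liver (circles), ventral pancreas (squares) and dorsal pancreas (triangles), 1 library each. The genes were chosen by their liver level; liver exceeds ventral pancreas by a median ratio of 7.72 and dorsal pancreas by 52.0 here, against 4.60 and 15.9 over all 53 measured genes of these lists.

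Enzymes of hepatic metabolism were read next. Of 15 measured genes of amino acid catabolism and the urea cycle, 3 were higher in liver and 1 lower, with a median of 1.26, and 13 of the 15 had a difference above 0. Fah, the last enzyme of tyrosine breakdown, stood at 41.3, 8.11 and 2.56 FPKM in liver, ventral pancreas and dorsal pancreas. Cbs and Cth, which turn homocysteine into cysteine, stood at 18.2 against 3.15 FPKM and at 64.8 against 12.6 FPKM in liver and ventral pancreas. The urea cycle genes Ass1 and Asl were higher in value without passing the rule, Ass1 at 33.9 against 7.89 FPKM and Asl at 60.6 against 28.2 FPKM. Arg1, encoding the arginase that ends the cycle, went the other way at 8.53 FPKM in liver against 61.6 in the ventral pancreas and 90.4 in the dorsal one, at a locus that overlaps Med23.

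Lipid and sugar metabolism had few counted genes. Of 22 measured genes of fatty acid oxidation and synthesis 0 were counted in either direction, but 20 had a difference above 0 and the median was 0.57. The largest was Dgat2, which makes triglyceride, at 83.4 against 21.7 FPKM. Of 13 cholesterol and bile acid genes 1 was higher in liver and 0 were lower; the median was 0.41. Glycolysis and gluconeogenesis had 1 gene in each direction among 21 and a median of -0.16. Pklr, the pyruvate kinase of liver and red cells, was higher in liver (19.5 against 3.64 FPKM, overlapping Hcn3). Slc2a2, the glucose transporter of hepatocytes and beta cells, stood at 20.6 FPKM in liver, with 39.3 in the ventral and 4.41 in the dorsal bud.

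Iron handling and detoxification had few counted genes as well. Hmox1, encoding the haem oxygenase that breaks down haem, was the only 1 of 15 measured iron, haem and copper genes counted as higher, at 37.8 against 8.07 FPKM, and 0 were lower. Fth1, the ferritin heavy chain, stood at 913 against 389.9 FPKM and overlaps Best1. Among 10 measured detoxification enzymes, Gstm1 was higher in liver (133 against 26.2 FPKM) and Gsta3 lower (0.395 against 6.24 FPKM). Of 16 measured cytochrome P450 genes 1 was higher in liver, 1 was lower and 14 were neither, with a median of -0.39. The lower one was Cyp39a1, an oxysterol hydroxylase, at 2.14 against 11.96 FPKM. The higher one, Cyp2c70, a gene of adult liver, stood at 9.22 FPKM in liver and 0.671 in ventral pancreas and was listed at 0 in the other 3 libraries. A joined locus of Cyp2c40, Cyp2c68 and Cyp2c69 stood at 137, 12.3 and 0.0200 FPKM in liver, ventral pancreas and dorsal pancreas. Cyp2c70 and this joined locus were highest in liver among the 5 libraries.

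The general machinery of secretion and translation had small differences, mostly above 0. In the list of secretory pathway and chaperone genes, 28 of 30 measured members had a difference above 0, the median was 0.65 and 0 passed the size rule in either direction. Hspa5, the main chaperone of the endoplasmic reticulum, stood at 996 FPKM in liver against 475 in the ventral pancreas and 419 in the dorsal one, and Sec61a1, the pore through which secreted proteins enter it, at 183 FPKM in liver, with 85.4 in the ventral and 90.7 in the dorsal bud. The Hspa5 locus overlaps Gapvd1. Of 52 cytosolic ribosomal protein genes 50 had a difference above 0 (median 0.34), and of 52 mitochondrial ones 49 (median 0.43). Zinc finger genes named Zfp were on the other side, with 27 of 256 measured members above 0, a median of -0.57 and 3 counted as lower. The median over all measured loci was -0.16, so these small shifts are relative to that value, and with each library rescaled to 1000000 the median of all loci moved further down.

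The transcription factors known from liver development were not mainly on the liver side. Of 21 measured members 2 were higher in liver, 2 were lower and 17 were neither, with a median of 0.25. Hnf4a was higher, with levels of 3.30 and 2.30 FPKM in foregut and medial foregut and 12.95 in dorsal pancreas beside those given above. Creb3l3, a membrane-bound factor that activates genes of lipid metabolism, was also higher, at 20.3, 2.36 and 0.244 FPKM in liver, ventral pancreas and dorsal pancreas. Onecut1, a factor of both the biliary and the pancreatic lineages, was among the lower. Onecut1 stood at 11.9 FPKM in liver against 78.0 in the ventral pancreas and 18.3 in the dorsal one. Cebpa, which drives hepatocyte maturation, stood at 47.3 FPKM in liver, with 18.0 in the ventral and 2.82 in the dorsal bud, a difference of 1.34 that did not pass the rule. Prox1, needed for hepatoblasts to leave the bud, stood at 30.3 against 9.66 FPKM, but its locus has the strand opposite to the annotation. Foxa1 (28.2 against 12.8 FPKM, overlapping 4921506M07Rik) and Tbx3 (31.5 against 13.7 FPKM) had higher values in liver, and Foxa2 (24.04 against 45.7 FPKM), Nr5a2 (22.7 against 45.1 FPKM) and Hhex (71.2 against 133 FPKM) higher values in ventral pancreas, with no difference of 2 or more in size.

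Promoter sequence was looked at because many hepatic product genes were higher in liver, and HNF1 and HNF4 are known activators of such genes. The 250 bases before the annotated start were read from the promoter table of RefSeq on GRCm38.p6, which is another build than the mm9 of the expression table, so only gene names link them. The 3 promoters below are those of Alb (chr5:90460620-90460869, plus strand), Fga (chr3:83025903-83026152, plus strand) and Fgb (chr3:83049864-83050113, minus strand), shown 5′ to 3′ in the direction of the gene, with capitals for the letters GTTAAT on either strand, the shared part of the HNF1 binding sequence.
Alb: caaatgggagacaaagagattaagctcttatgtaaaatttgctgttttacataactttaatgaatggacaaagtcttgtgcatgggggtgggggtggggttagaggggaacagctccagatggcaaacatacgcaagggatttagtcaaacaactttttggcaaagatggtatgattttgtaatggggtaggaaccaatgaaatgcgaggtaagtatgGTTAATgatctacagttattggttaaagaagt
Fga: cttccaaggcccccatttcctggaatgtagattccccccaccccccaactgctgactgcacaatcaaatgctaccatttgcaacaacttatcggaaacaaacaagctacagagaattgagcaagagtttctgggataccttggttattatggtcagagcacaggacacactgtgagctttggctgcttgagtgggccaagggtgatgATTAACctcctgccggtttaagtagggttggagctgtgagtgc
Fgb: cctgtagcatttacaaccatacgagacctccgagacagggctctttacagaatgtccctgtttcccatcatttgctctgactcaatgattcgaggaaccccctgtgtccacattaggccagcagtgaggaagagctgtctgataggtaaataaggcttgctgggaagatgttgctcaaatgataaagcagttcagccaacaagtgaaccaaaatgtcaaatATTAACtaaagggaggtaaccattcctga
Each of them holds the letters 1 time, near the start: at positions -32 to -27 in Alb, -43 to -38 in Fga and -29 to -24 in Fgb, where -1 is the last base before the start. A promoter was found for 113 of the genes higher in liver (140 promoters), 249 of the genes lower in liver (344 promoters) and 9160 named loci (11839 promoters). GTTAAT occurred in 10% of the first, 6.10% of the second and 4.33% of all. The other higher genes that hold it include Apoc2, Hnf4a, Itih1, Hgfac and the muscle gene Csrp3, so it was not restricted to hepatic products. The HNF4 core CAAAGTCC occurred in 4.29%, 0.581% and 1.11% of the same sets. These are counts of letters on both strands and say nothing of binding, and GTTAAT shares the letters TAAT with the homeobox core below, so that matches can overlap.

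The motif with the largest share among promoters of the genes lower in liver was CACCTG. It is the E-box form recognised by the PTF1 complex and also by repressors of epithelial genes. Among the 10 motifs searched it also had the largest share in promoters of the higher genes and in all promoters. It occurred in 25.0% of promoters of the genes lower in liver, 17.1% of those higher and 15.9% of all. The promoters of Pdx1 (chr5:147269847-147270096, plus strand) and Epcam (chr17:87635729-87635978, plus strand) are shown as examples of a progenitor factor and an epithelial adhesion gene, with capitals for CACCTG on either strand.
Pdx1: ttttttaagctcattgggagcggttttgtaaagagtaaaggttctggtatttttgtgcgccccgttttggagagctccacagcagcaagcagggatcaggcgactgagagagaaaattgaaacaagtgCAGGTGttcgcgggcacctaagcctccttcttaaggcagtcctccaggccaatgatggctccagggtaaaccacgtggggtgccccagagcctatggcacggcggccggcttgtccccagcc
Epcam: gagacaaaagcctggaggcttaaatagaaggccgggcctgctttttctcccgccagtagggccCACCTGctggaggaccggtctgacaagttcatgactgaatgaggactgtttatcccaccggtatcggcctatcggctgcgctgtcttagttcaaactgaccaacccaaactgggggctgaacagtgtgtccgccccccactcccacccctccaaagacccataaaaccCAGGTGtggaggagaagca
Pdx1 holds 1 match, at -122 to -117, and Epcam 2, at -187 to -182 and -19 to -14. Of the other motifs among the 10 searched, the TATA box TATAAA was in 10% of promoters of higher genes, 8.14% of lower and 6.54% of all, the forkhead core TGTTTAC in 4.29%, 2.33% and 2.15%, and its form TATTTAC in 3.57%, 2.91% and 1.46%. The C/EBP letters TTGCNNAA were in 9.29%, 6.10% and 7.08%, the RFX half-site GTTGCC in 9.29%, 10.47% and 10.52%, and the homeobox core TAATTA in 2.14%, 2.62% and 2.70%. The palindrome TTGCGCAA was in 0 promoters of the higher genes, 1 of the lower and 29 of all.

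Pancreatic progenitor transcription factors had 18 measured members, of which 10 were lower in liver, 0 were higher and 8 were neither, with a median difference of -2.34, against 2.76% of all loci counted as lower. Pdx1, needed for pancreas formation, stood at 0.945 and 0.444 FPKM in foregut and medial foregut at E8.5, and at 0.0313, 39.2 and 40.9 FPKM in liver, ventral pancreas and dorsal pancreas. Glis3, a zinc finger factor of ductal and beta cells, stood at 0.0637 FPKM in liver against 9.58 in the ventral pancreas and 1.77 in the dorsal one. Rfx6, which acts in endocrine development, stood at 0.0452 FPKM in liver, with 8.93 in the ventral and 15.6 in the dorsal bud, and Isl1, a LIM homeobox factor of endocrine cells and of pancreatic mesenchyme, at 0.318, 13.3 and 104 FPKM in liver, ventral pancreas and dorsal pancreas. Glis3 and Onecut1 were thus higher in ventral than in dorsal pancreas, and Isl1 and Rfx6 lower. Of 9 measured Sox genes 4 were lower in liver and none had a difference above 0, with a median of -1.95. Sox17 led them at 1.104 FPKM in liver against 65.9 in the ventral pancreas and 0.821 in the dorsal one, and at 2.58 and 3.20 FPKM in foregut and medial foregut at E8.5.

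The endocrine lists had members lower in liver and none higher. Of 15 measured endocrine transcription factors 4 were lower in liver (Isl1, Rfx6, Insm1 and Neurod1), 0 were higher and 11 were neither, and none had a difference above 0; the median was -1.70. Neurod1, which acts downstream of Neurog3, had 0 in liver, 6.74 FPKM in ventral pancreas and 19.3 in dorsal. Of 17 measured hormone and granule genes 7 were lower, 0 higher and 10 neither, with a median of -2.30. Gcg, encoding glucagon, had the largest difference of the list at -7.69, with 0.00929 FPKM in liver, with 208 in the ventral and 1349 in the dorsal bud. Chgb, a granin of secretory granules, stood at 0.137, 23.6 and 56.0 FPKM in liver, ventral pancreas and dorsal pancreas. Abcc8 and Kcnj11, which form the ATP-sensitive potassium channel, stood at 0.0445 against 18.9 FPKM and 0.129 against 12.6 FPKM in liver and ventral pancreas. Ins1, one of the mouse insulin genes, had 0 in liver, 1.62 FPKM in ventral pancreas and 16.4 in dorsal. The joined locus of Nkx2-2 and its antisense RNA was listed at 0 in liver too, and reached 22.1 FPKM in ventral pancreas.

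The 6 measured acinar genes did not move as one. Cpa1, encoding a carboxypeptidase that is an early mark of pancreatic progenitors, was lower in liver and stood at 0.229 FPKM in liver against 27.0 in the ventral pancreas and 30.7 in the dorsal one. The pancreatic lipase-related genes Pnliprp1 and Pnliprp2 were higher in liver. Pnliprp1 stood at 33.8 FPKM in liver, with 3.39 in the ventral and 5.06 in the dorsal bud and Pnliprp2 at 8.82, 1.03 and 0.415 FPKM in liver, ventral pancreas and dorsal pancreas. These lipase genes, named for the pancreas, were therefore highest in liver among the 5 libraries.

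**Figure D3:**
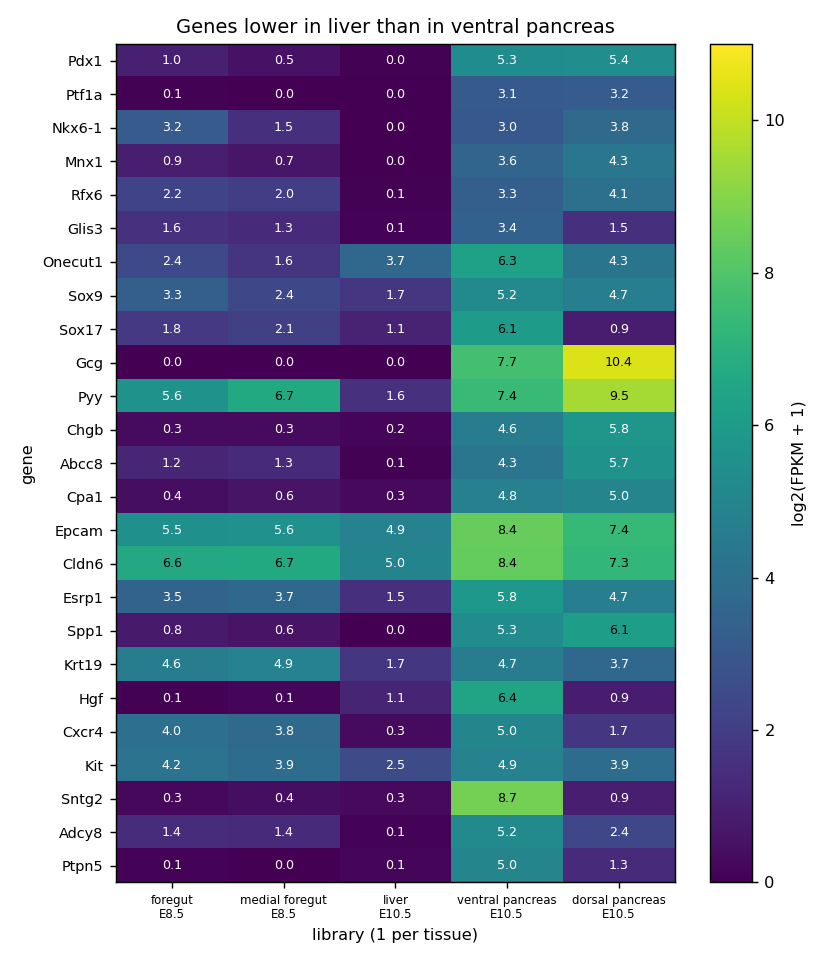
Level of 25 genes counted as lower in liver, as log2(FPKM + 1) by colour and as printed values, in each of the 5 libraries (1 per tissue). The liver column is near 0 for most of the progenitor and endocrine genes; Sox17, Hgf, Cxcr4, Sntg2, Adcy8 and Ptpn5 are bright in ventral pancreas and dimmer in dorsal pancreas, while Gcg and Pyy are brightest in dorsal pancreas.

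Of 19 measured biliary and ductal genes 8 were lower, 0 higher and 11 neither, with a median of -1.73; this list shares Sox9, Sox17, Onecut1 and others with further lists. Spp1, encoding osteopontin, stood at 0.0101 FPKM in liver against 38.0 in the ventral pancreas and 68.2 in the dorsal one. Krt19 and Krt7, keratins of ducts, stood at 2.32 against 24.1 FPKM and 3.88 against 29.4 FPKM in liver and ventral pancreas. The Krt19 locus covers 1525% of the annotated span of that gene.

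Epithelial genes included many lower ones. Of 35 measured genes of epithelial junctions and keratins 18 were lower in liver, 0 were higher and 17 were neither, with a median of -2.21. Esrp1, a splicing regulator of epithelial cells, stood at 1.77 FPKM in liver, with 56.6 in the ventral and 25.4 in the dorsal bud. Ap1m2, which sorts proteins to the basolateral membrane, stood at 1.19, 49.2 and 23.0 FPKM in liver, ventral pancreas and dorsal pancreas, and St14, encoding the membrane protease matriptase, at 0.942 FPKM in liver against 44.7 in the ventral pancreas and 22.0 in the dorsal one. Grhl2, a transcription factor that maintains epithelium, stood at 0.0907 FPKM in liver, with 11.9 in the ventral and 6.29 in the dorsal bud. Of 6 measured claudins, which seal tight junctions, 4 were lower, with a median of -3.38. Cldn6 stood at 29.96, 334 and 154 FPKM in liver, ventral pancreas and dorsal pancreas, Cldn7 at 0.354 against 31.0 FPKM (its locus overlaps Ctdnep1 and Rai12), and Cldn12 differed the other way at 30.2 against 21.3 FPKM. Some of these genes were present in liver at a reduced level: Epcam stood at 28.4 FPKM and Cdh1 at 13.99 there, against 343 and 87.0 in ventral pancreas. Others, such as Grhl2, Cldn7 and St14, were under 1 FPKM in liver. Krt8, the keratin of simple epithelia and hepatocytes, stood at 121 against 225 FPKM and did not pass the rule.

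Most counted matrix genes were lower in liver. Of 32 measured genes of basement membrane and extracellular matrix, 6 were lower in liver, 1 was higher and 25 were neither, with a median of -0.48. The shares over all named loci were 2.76% lower and 1.24% higher. Col2a1, a fibrillar collagen best known from cartilage, stood at 2.01 FPKM in liver against 124 in the ventral pancreas and 73.7 in the dorsal one, and at 168 and 279 FPKM in foregut and medial foregut at E8.5. Lama1, a laminin chain of early epithelia, stood at 2.62 FPKM in liver, with 22.3 in the ventral and 20.8 in the dorsal bud. Col4a1 and Col4a2, the main chains of basement membrane collagen, stood at 31.4 against 152 FPKM and 14.2 against 68.2 FPKM; their loci overlap each other. Nid2, encoding nidogen, which links laminin to collagen, was the 1 gene higher in liver, at a locus that overlaps 2700060E02Rik, at 37.6, 8.42 and 4.59 FPKM in liver, ventral pancreas and dorsal pancreas. The laminin receptor subunit Itga6 was the 1 lower of 13 measured integrins, at 12.2 against 54.8 FPKM. Among 9 measured genes of the epithelial-mesenchymal transition Twist1 was counted as higher, at 8.09 against 1.26 FPKM, and 0 as lower.

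Growth factor genes differed strongly in a few members. Of 29 measured genes of the HGF, IGF, EGF and VEGF group 5 were lower in liver and 1 was higher, with a median of -0.37. By comparison, 2.76% of all named loci were lower and 1.24% higher. Hgf, the ligand that promotes hepatoblast growth, stood at 1.17 FPKM in liver against 84.6 in the ventral pancreas and 0.816 in the dorsal one, and at 0.0522 and 0.109 FPKM in foregut and medial foregut at E8.5. It was therefore high in ventral pancreas alone among the 5 libraries. Its receptor gene Met stood at 23.3 FPKM in liver, with 16.7 in the ventral and 8.61 in the dorsal bud. Cxcr4, a chemokine receptor, stood at 0.244, 31.9 and 2.35 FPKM in liver, ventral pancreas and dorsal pancreas, and Kit, the receptor of stem cell factor, at 4.64 FPKM in liver against 28.8 in the ventral pancreas and 13.8 in the dorsal one. The gene of its ligand, Kitl, had the higher value in liver at 62.8 against 22.4 FPKM. Erbb3 stood at 1.22 against 8.78 FPKM. Kdr, the VEGF receptor of endothelium, was the 1 higher member and belongs with the endothelial genes given below.

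The Wnt genes, which include the planar cell polarity branch that the study's title names, were read next. Of 43 measured genes of non-canonical Wnt signalling and planar cell polarity, 6 were lower in liver and 0 higher, with a median of -0.35. Over all named loci 2.76% were counted as lower and 1.24% as higher. The list was prompted by that title and is no independent evidence of its direction. The receptor gene Fzd2 had the 5-library values 26.8 and 24.4 FPKM in foregut and medial foregut at E8.5 and 3.04 FPKM in liver, with 21.4 in the ventral and 18.9 in the dorsal bud. The secreted inhibitor Sfrp5 stood at 106 and 141 FPKM in foregut and medial foregut at E8.5 and 4.28, 41.7 and 21.7 FPKM in liver, ventral pancreas and dorsal pancreas. Both were thus highest at E8.5 and lowest in liver. Vangl2, a core polarity gene, stood at 8.08 against 16.6 FPKM and Wnt5a at 0.582 against 1.53 FPKM, neither passing the rule. In the canonical list, 2 of 27 measured members were higher, Lgr5 (22.9 against 2.78 FPKM), a receptor of R-spondins, and Dkk3 (24.9 against 4.97 FPKM), a secreted protein of the Dickkopf family. Wnt7b was lower, at 0.0196 against 10.55 FPKM.

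The other signalling lists had 0 to 2 members counted in a direction, apart from the guidance genes. In the BMP, TGF-beta and activin list Tgfb1 was higher in liver, at 15.2 FPKM in liver against 1.51 in the ventral pancreas and 4.24 in the dorsal one, and 0 of 33 were lower; the ligand gene Bmp4 stood at 7.08 against 7.76 FPKM. In the FGF list Etv4, a target of FGF signalling, and Fgfr2 were lower among 16, Etv4 at 8.83 against 40.0 FPKM and Fgfr2 at 19.8 against 92.3 FPKM, the latter at a locus covering 3.77% of the annotated span. The Notch ligand gene Dll1 (2.57 against 20.7 FPKM) and the receptor gene Notch3 (5.47 against 31.3 FPKM) were lower among 17. Crabp1, which binds retinoic acid in the cell, and the receptor gene Rxrg were lower among 15 retinoic acid genes. Crabp1 stood at 457 and 325 FPKM in foregut and medial foregut at E8.5 and at 2.18 FPKM in liver, with 68.1 in the ventral and 19.3 in the dorsal bud. Of 11 measured Hedgehog genes 0 were counted, since Shh, at 0.00678, 3.14 and 0.417 FPKM in liver, ventral pancreas and dorsal pancreas, did not reach 5 FPKM in either of the compared libraries. Pancreatic buds are known to exclude Shh, whose level at E8.5 was 10.2 and 7.35 FPKM.

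Guidance genes were counted mainly as lower in liver. Of 43 measured ephrins, semaphorins, slits and netrins with their receptors, 7 were lower in liver and 1 was higher, with a median of -0.85. This stands beside 2.76% of all named loci counted as lower and 1.24% as higher. Sema3c, a secreted semaphorin, stood at 0.884 FPKM in liver against 26.2 in the ventral pancreas and 7.93 in the dorsal one, and Efnb2, an ephrin, at 2.12 FPKM in liver, with 31.9 in the ventral and 10.1 in the dorsal bud. Robo2, a slit receptor, stood at 6.64, 32.8 and 2.01 FPKM in liver, ventral pancreas and dorsal pancreas. All 3 were higher in ventral than in dorsal pancreas. Plxnd1, a semaphorin receptor of endothelium, was the higher member, at 24.2 against 4.36 FPKM.

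Genes of growth control and the cell cycle differed little. Of 18 measured imprinted genes 0 were counted in either direction, although some were among the most abundant genes of both libraries. H19, a non-coding RNA, stood at 3808 FPKM in liver and 2760.5 in ventral pancreas, Dlk1, a membrane protein of hepatoblasts and other progenitors, at 2377 FPKM in liver against 1718 in the ventral pancreas and 485 in the dorsal one, and Igf2 at 1154 FPKM in liver, with 876 in the ventral and 652 in the dorsal bud. Peg3 had the largest difference of the list, at 121 against 396 FPKM. Among 22 DNA replication genes and 20 mitosis genes 0 were counted, with medians of 0.23 and -0.11. The cyclin gene Ccne1 had the largest replication difference, at 111 against 36.8 FPKM. Of 12 cell cycle inhibitors and p53 targets only Trp53inp1 was lower in liver, at 1.57 against 12.9 FPKM, and Cdkn1a stood at 6.26 against 21.1 FPKM.

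**Figure D4:**
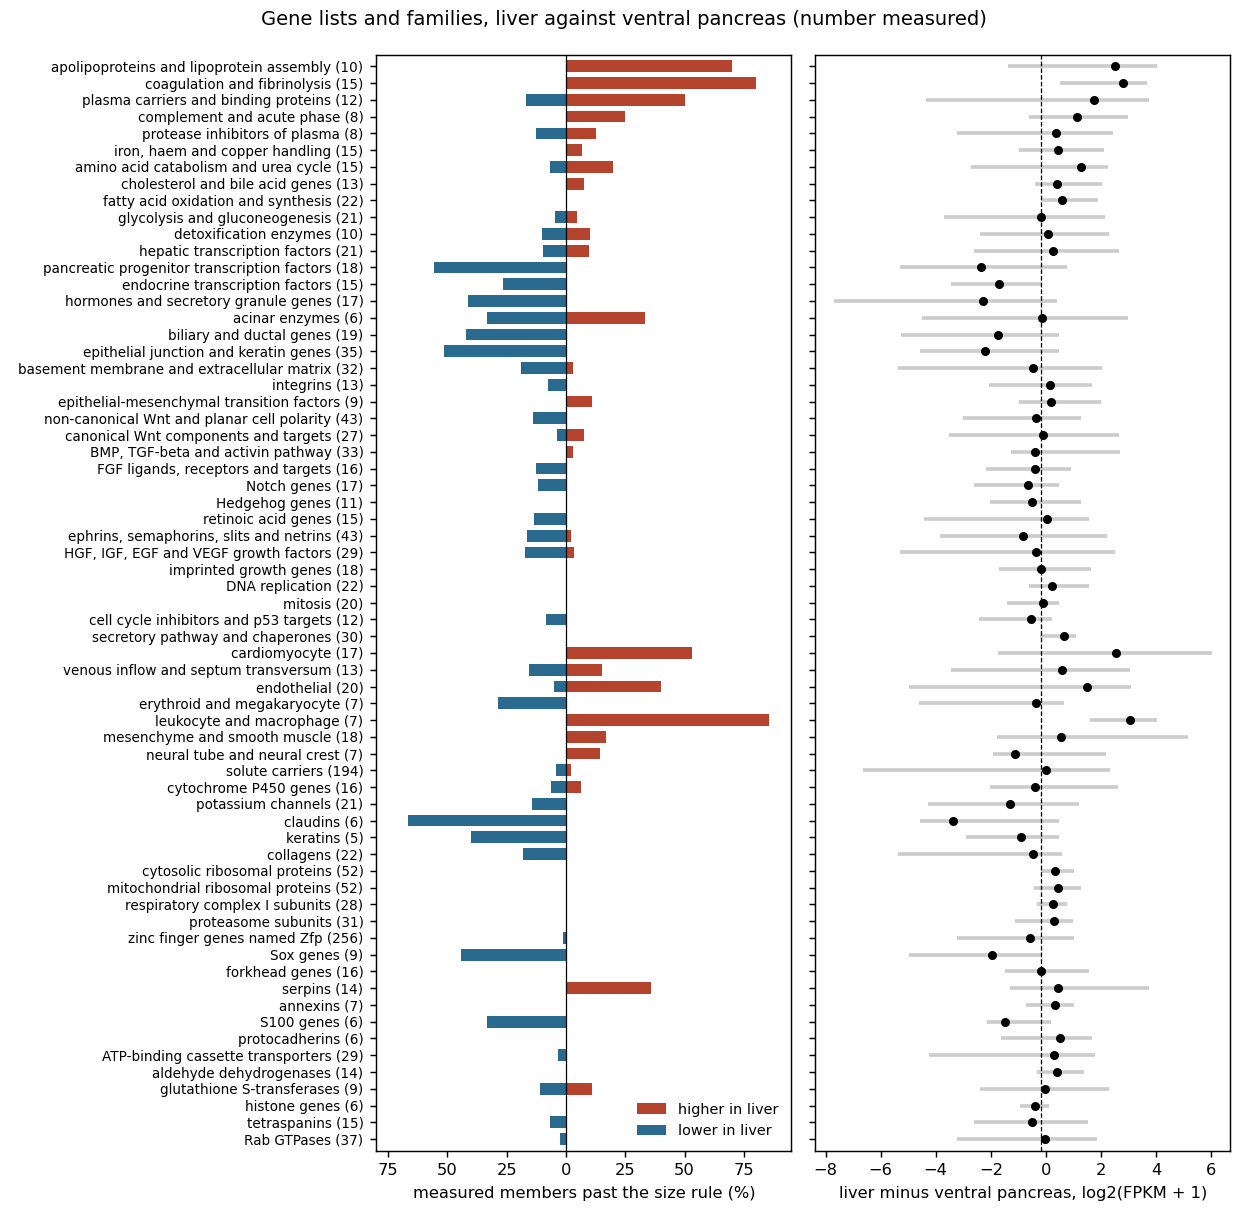
Left, percentage of the measured members of each gene list or family counted as higher (red, to the right) or lower (blue, to the left) in liver, with the number measured in brackets. Right, median difference (point) and range (grey line) on the log2(FPKM + 1) scale, with the dashed line at -0.16, the median of all measured loci; lists under 5 measured members are not drawn. Coagulation genes have 12 of 15 members on the right, and pancreatic progenitor factors 10 of 18 and claudins 4 of 6 on the left.

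Markers of other cell types differed between these libraries as well, and bear on the genes with the largest differences. Of 17 measured cardiomyocyte genes, of 25 listed, 9 were higher in liver and 0 lower, with a median of 2.56. The 20 genes found of this list, the unmeasured ones included, summed to 548 FPKM in liver, 39.5 in the ventral and 28.3 in the dorsal bud, and 6021 and 10375 in foregut and medial foregut. Actc1, the cardiac actin gene, had the highest difference of any single-name locus, 6.02, with 77.9 FPKM in liver and 0.217 in ventral pancreas. Myl7, the atrial myosin light chain gene, stood at 93.9 FPKM in liver and 5.56 in ventral pancreas, and Myh6, a cardiac myosin heavy chain gene, at 7.05 FPKM in liver and 0.362 in ventral pancreas. Myl2, the ventricular light chain gene, stood at only 0.692 FPKM in liver and did not pass the size rule. It was listed at 0 in both the ventral and the dorsal pancreas. Of the other muscle genes, 3 of 18 measured mesenchymal and smooth muscle genes were higher in liver (Acta2, Tagln and Twist1) and 0 lower. Acta2, the smooth muscle actin gene, stood at 133 FPKM in liver and 2.78 in ventral pancreas and overlaps Stambpl1, and Tagln overlaps Pcsk7.

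Blood and vessel genes split. On the leukocyte and macrophage list, 7 of the 20 genes were measured and 6 of these were higher in liver, with a summed level of 103 FPKM against 5.64 in ventral pancreas and 7.47 in dorsal pancreas. C1qb and C1qc, complement genes of macrophages, were listed at 0 in both E8.5 libraries and stood at 41.3 against 1.59 FPKM and 14.5 against 0.278 FPKM in liver and ventral pancreas. Of 20 measured endothelial genes 8 were higher in liver, among them Cdh5, encoding the cadherin of vessels, at 15.8 against 1.37 FPKM, and Tie1 at 13.9 against 1.54 FPKM. The list's 1 lower member was Sox17, given above, which also marks endoderm. The VEGF receptor gene Flt1 had the higher value in ventral pancreas (2.86 against 14.3 FPKM) without passing the rule, and 17 of the 20 had a difference above 0. Summed endothelial levels were 219 FPKM in liver and 157 in ventral pancreas, of which Sox17 was 1.104 and 65.9. Among 7 measured erythroid genes, of 23 listed, Hbb-y, an embryonic globin, was lower in liver (22.0, 111 and 24.4 FPKM in liver, ventral pancreas and dorsal pancreas), as was Slc4a1, the anion exchanger of red cells (0.205 against 28.5 FPKM, whose locus covers only 18.4% of that gene's span). The 10 genes found of this list, the unmeasured ones included, summed to 71.6 FPKM in liver and 196 in ventral pancreas.

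Other neighbours were less marked. Of 13 measured venous inflow and septum transversum genes, Upk3b (8.84 against 0.178 FPKM), a mesothelial gene, and Tbx18 (10.45 against 1.78 FPKM) were higher in liver, and Isl1 and Krt19, also on other lists, were lower. Of 7 measured neural genes, of 27 listed, Ednrb was higher (14.2 against 2.36 FPKM). Foxd3, Olig2 and Zic2 were found and listed at 0 in liver, but were not among the measured genes (the Foxd3 locus has the strand opposite to the annotation). Their mean over liver and ventral pancreas was thus under 1 FPKM. Of 4 measured stomach, duodenum and lung genes 0 were counted. The part of these cell types in the differences between liver and ventral pancreas was not tested.

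**Figure D5:**
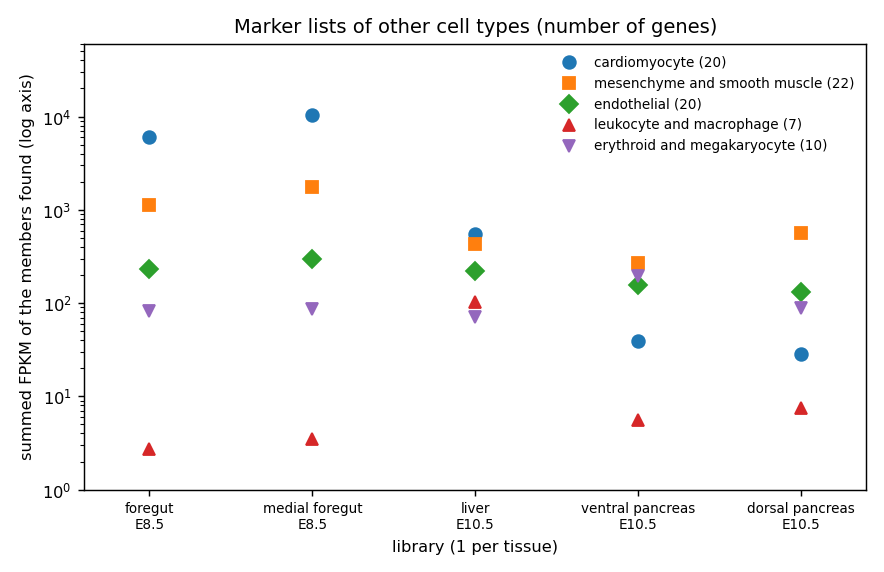
Summed FPKM (log axis) of the members found of 5 marker lists in each library, with the number of genes in brackets. Cardiomyocyte markers sum to 548 in liver and 39.5 in ventral pancreas, leukocyte markers to 103 and 5.64, and erythroid markers to 71.6 and 196.

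The largest difference of all was a locus with 3 joined names, 2410017I17Rik, H2-Bl and H2-T10 (chromosome 17, 36131114 to 36340317 in mm9), at 4797 FPKM in liver and 2.37 in ventral pancreas; it overlaps further histocompatibility loci, so the gene behind it cannot be told. On the other side, several of the lowest values belonged to genes outside any list. Sntg2, encoding a syntrophin of the dystrophin complex (chromosome 12, 30859558 to 31058141 in mm9), stood at 414 FPKM in ventral pancreas and at 0.193, 0.341, 0.203 and 0.916 in foregut, medial foregut, liver and dorsal pancreas. It was thus above 1 FPKM in 1 of the 5 libraries. Myo15, an unconventional myosin gene, had a like pattern, with 113 FPKM in ventral pancreas and 0.273 in liver, at a locus covering 1.86% of the annotated span. Adcy8, an adenylate cyclase, stood at 0.0909 FPKM in liver against 36.8 in the ventral pancreas and 4.11 in the dorsal one, and Ptpn5, a tyrosine phosphatase, at 0.101 FPKM in liver, with 31.2 in the ventral and 1.49 in the dorsal bud. B4galnt2, a glycosyltransferase, stood at 0.0732, 21.7 and 1.41 FPKM in liver, ventral pancreas and dorsal pancreas. Nepn, encoding the secreted protein nephrocan, stood at 0.512 FPKM in liver against 254 in the ventral pancreas and 602 in the dorsal one, and the amino acid transporter gene Slc38a5 at 0.655 FPKM in liver, with 165 in the ventral and 886 in the dorsal bud.

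Transporters and channels were split. Of 194 measured solute carriers 4 were higher in liver and 8 lower, near the shares of all loci, and the median was 0.01. Slc27a2, which activates and takes up fatty acids, stood at 28.4 against 5.07 FPKM, and Slc19a2, a thiamine transporter, at 35.2 against 7.83 FPKM. Slc28a2, a nucleoside transporter, stood at 0.106, 13.6 and 1.16 FPKM in liver, ventral pancreas and dorsal pancreas. Of 21 measured potassium channels 3 were lower and 0 higher; Kcnk16, a channel of islet cells, stood at 0.788 FPKM in liver against 33.8 in the ventral pancreas and 72.1 in the dorsal one.

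The counted genes were then read in the libraries that the size rule did not use. The 154 genes higher in liver had a median of 31.1 FPKM in liver and 3.67 in ventral pancreas, and of 1.72 in dorsal pancreas, 1.796 in foregut and 1.68 in medial foregut. The 342 genes lower in liver had a median of 14.4 FPKM in ventral pancreas and 1.19 in liver, and of 11.1 in dorsal pancreas, 4.56 in foregut and 4.04 in medial foregut. In dorsal pancreas 256 of the 342, or 74.9%, reached 5 FPKM, beside 74.6% of all measured loci. Of the 154 higher genes 45, or 29.2%, did so. In foregut 46.8% of the lower genes and 39.6% of the higher genes reached 5 FPKM, beside 71.0% of measured loci.

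Some counted genes were neighbours on the chromosome. With at most 200000 bp between starts, 2 runs of 3 or more genes were higher in liver: the fibrinogen genes Fgg, Fga and Fgb (chromosome 3, 82811153 to 82853912 in mm9) and Apoc2, Apoc1 and the joined Apoe locus (chromosome 7, 20253455 to 20300981). There were 6 runs of lower genes. The longest held Ifitm1, Ifitm3, Pkp3 and Ano9 on chromosome 7, where Ifitm3, an interferon-induced membrane protein, stood at 6.39 FPKM in liver and 72.8 in ventral pancreas. Another held Kcnj11, Abcc8 and Ush1c on chromosome 7, the first and second being the channel genes described above. The run of Crb3, Dennd1c and Tubb4 on chromosome 17 includes a pair of loci with the same interval on opposite strands, whose reads cannot be told apart.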

How the data were processed

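The authors deposited 1 table of FPKM values, per the file headers, with 1 column per library. TopHat 1.33, Cufflinks 1.3.0 and the build mm9 are named in the submitters' processing notes, where neither role nor order is stated. Read depth, how libraries were scaled and how loci were chosen were not given in the sources at hand, so counting intervals cannot be had. A gene at exactly 0 is called listed at 0 and gets no ratio.

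Of 14053 loci, 1678 without a name were left out. Differences were taken as log2(FPKM + 1) with Python 3.11.15, pandas 2.3.3 and numpy 2.4.6; this understates changes of low genes. The counting code was tested on simulated data, a copy of the ventral pancreas library with large known changes put in. Those changes were bound to pass the size rule, so the test checks the code and not the counts. The comparison, the 43 gene lists and the 24 families by name pattern were chosen with earlier results of these data known. Members were found by exact name or listed synonym; those inside joined names were not measured. Loci overlapping others, covering under 30% of the annotated span or lying on the other strand are marked where named. Loci longer than the annotated span, such as those of C1s (816%) and Sox17 (533%), are in general not marked. Whether they hold reads of neighbouring genes was not tested. The labels' protocols describe no step that marks strand.

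Genes named are the 25 single-name loci with the largest and the 25 with the smallest difference among those counted, up to 6 measured members per list and 4 per family with the largest differences, the 10 highest by mean level, and 24 lineage and signalling genes named always; some of these are not reported here. Names outside the rule, chosen after their values were seen, are 2410017I17Rik with H2-Bl with H2-T10, Ambp, Apoe with Tomm40, Asl, Blnk, Cd74, Cd79a, Cd79b, Cebpa, Cldn12, Cyp2c40 with Cyp2c68 with Cyp2c69, Eif2s3y, Fgb, Fgg, Fkbp11, Flt1, Foxa2, Ftcd, Gc, H2-Aa, H2-Eb1, Kdm5d, Kitl, Lpl, Mttp, Myh6, Nid2, Nkx2-2 with Nkx2-2as, Nr5a2, Pde6c with Rbp4, Pltp, Pou2af1, Psat1, Qprt, Shbg, Slc19a2, Slc27a2, Soat2, Tbx3, Uty, Vtn, Xist, Nkx6-1, Cst3 and Myl2. Members of neighbouring runs and of motif matches are named as such. Alternatives were pseudocounts of 0.1 and 5 FPKM, no level minimum or 20 FPKM, a size rule of 1 or 3, rescaling to 1000000 or by median ratio, and leaving out joined, strandless or short loci.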

Additional observations from a re-analysis of the deposited data

How the results depend on the processing

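The 154 genes higher and 342 lower in liver changed with the pseudocount, the level minimum, the size rule and the scaling. A pseudocount of 5 FPKM gave 58 and 85, a minimum of 20 FPKM in the higher library 94 and 128, a size rule of 1 gave 490 and 1088, and a size rule of 3 gave 40 and 101. Rescaling each library to 1000000 gave 196 higher and 727 lower, of which 146 and 342 were shared with the values as deposited. That rescaling raised all values while the pseudocount stayed fixed, so it is not a change of scaling between libraries alone. A pseudocount of 0.1 FPKM gave 190 and 452, no minimum 156 and 376, median-ratio rescaling 156 and 332, and leaving out joined, strandless or short loci 147 and 324. Lower genes outnumbered higher ones under each of these 9 alternatives. No difference of a counted named gene changed sign in them, but this was bound to be so and is no check. A pseudocount cannot turn a sign, and the level and size rules leave the difference as it is. Both rescalings shift the ratio between libraries by far less than the 4 times of the size rule. Of the list and family medians, 62 of 67 kept 1 sign. The 5 with both signs were Hox genes, Rab GTPases, glutathione S-transferases, retinoic acid genes and solute carriers. Leaving out a replicate was not possible, and no paired analysis was possible because each tissue has 1 library. Differences between 1 library and 1 library hold no replicate error, and with read depth unknown, low values have no counting interval.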

Other observations

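The genes below were on no list and were chosen after their values were seen, so they stand for no group. Cd74, the invariant chain of class II molecules, stood at 0.278 FPKM in liver, with 15.1 in the ventral and 7.69 in the dorsal bud, and the class II genes H2-Aa and H2-Eb1 at 0.0469, 8.29 and 2.91 FPKM in liver, ventral pancreas and dorsal pancreas and at 0.344 FPKM in liver against 13.1 in the ventral pancreas and 5.77 in the dorsal one. Cd79a, a chain of the B-cell receptor, stood at 0.962 against 8.43 FPKM, its adaptor gene Blnk at 0.109 against 7.06 FPKM, and Pou2af1, a B-cell coactivator, at 0.0376 against 6.05 FPKM in liver and ventral pancreas. Cd79b, the other chain of that receptor, stood at 0.955 against 2.63 FPKM and did not reach 5 FPKM. The joined locus with H2-Bl and H2-T10, of the histocompatibility region too, had its higher value in liver, as given above.

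The sources at hand do not give the sex of the embryos. Xist, the RNA that coats the inactive X chromosome, stood at 6.96 FPKM in liver, with 119 in the ventral and 64.0 in the dorsal bud, and at 58.4 and 49.4 FPKM in foregut and medial foregut at E8.5, and was counted as lower in liver. The Y-linked genes Eif2s3y and Kdm5d stood at 29.1 against 13.9 FPKM and 7.86 against 6.36 FPKM, and Uty at 6.00 against 4.72 FPKM, none of them passing the size rule, so RNA of the Y chromosome was present in both libraries.

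Single genes counted as higher in liver, on no list, had these values. Psat1, an enzyme of serine synthesis, stood at 308, 64.0 and 51.4 FPKM in liver, ventral pancreas and dorsal pancreas, Ftcd, which breaks down histidine into one-carbon units, at 33.3 FPKM in liver against 3.60 in the ventral pancreas and 0.494 in the dorsal one, and Qprt, an enzyme of NAD synthesis, at 90.2 FPKM in liver, with 10.3 in the ventral and 4.34 in the dorsal bud. Soat2, which esterifies cholesterol, stood at 53.3, 5.29 and 0.735 FPKM in liver, ventral pancreas and dorsal pancreas, and Shbg, the sex hormone-binding globulin, at 45.3 FPKM in liver against 4.42 in the ventral pancreas and 0.0205 in the dorsal one. Lpl, encoding lipoprotein lipase, stood at 224 against 38.7 FPKM, at a locus covering 5.59% of the annotated span. Fkbp11, a prolyl isomerase of the secretory pathway, stood at 134 FPKM in liver, with 18.2 in the ventral and 9.67 in the dorsal bud.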
